A study of Arabidopsis thaliana with 12 samples.

Results

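The genes described here are the 202 Arabidopsis thaliana genes whose process annotation in the deposited tables names the term meristem maintenance, out of 24912 genes listed in any of the 4 tables. They were chosen by that annotation alone, without a threshold on any value, although the term was picked with results of these data in view. RNA came from leaf and root of wild-type Col seedlings aged 10 days. Seedlings were grown on half-strength MS medium with PS-SO3H or PS-NH2 polystyrene nanoplastics at 50 ug/ml, or without particles as the control. Each of the 6 groups (leaf PS-SO3H, leaf PS-NH2, leaf control, root PS-SO3H, root PS-NH2, root control) held 2 libraries, 12 in all, and PS-SO3H bears sulfonic acid groups and PS-NH2 amino groups as the names give them. Nothing in the labels says whether the libraries of a group came from separate cultures, so the p-values may measure technical spread only.

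Meristems are the small pools of dividing cells at the shoot and root tips from which new organs form. In the shoot tip, the transcription factor WUS keeps cells in the stem cell state, and the secreted peptide CLV3 limits WUS through CLV1 and related receptor kinases, among them the BAM receptors. In the root tip, WOX5, the PLT proteins, SCR and SHR hold the stem cell niche. A whole seedling leaf or root holds few such cells, so most RNA in these samples comes from other tissue.

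The deposited annotation is wide, and it leaves out several of the best known regulators. Of 63 meristem regulators listed from textbook knowledge, 11 carry the term: CLV3, CRN, BAM1, BAM2, BAM3, WOX9, REV, PHB, PHV, ATHB-15 and JKD. WUS, CLV1, STM, WOX5, PLT1, PLT2, SCR and SHR are not among the 202. The members also carry other terms, with 58 under meristem structural organization, 48 under adaxial/abaxial axis specification, 32 under cell wall organization and 30 under RNA export from nucleus. The label therefore describes an annotation, not a set of stem cell genes. Sorted by known role, 13 members are CLE peptides, their receptors and phosphatases, 22 are other kinases, 22 are transcription factors or co-factors, 32 are cell wall or secreted proteins and 21 act on chromatin, RNA or the nuclear pore. A further 5 act in auxin transport or belong to the NPH3 family, 10 in cell division or the cytoskeleton, 7 in light sensing or haem breakdown, 22 in metabolism and transport, and 10 in vesicle traffic or protein folding. The remaining 38 had another role or were given none. In the authors' files, a symbol stands for a pair of different members in 6 cases, such as BAM1 for a receptor kinase (AT5G65700) and for a beta-amylase (AT3G23920). In this text BAM1 and BAM2 (AT3G49670) mean the receptors.

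The tables give 1 fitted level per group and no value per library. A level is a fitted value on the scale of reads after scaling by size factors, without regard to gene length, and read depth is unknown. It is not a count: the same control leaf libraries have a CLV3 level of 0.708 in 1 table and 0.244 in the other. All levels, log2 fold changes (treated over control) and adjusted p-values for treated against control seedlings were taken from the authors' deposited tables. From each fold change and its p-value a standard error (SE) was derived. At levels near 0 this SE can be small, such as 0.11 for WUS in leaf with PS-SO3H at 0.252. It should not be read as precision there. The term called marks an adjusted p below 0.05 in those tables. They list 201 members in leaf PS-SO3H, 200 in leaf PS-NH2, 199 in root PS-SO3H and 198 in root PS-NH2, with 197 in all 4. Fewer cells of a type and less RNA per cell cannot be told apart in such samples.

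The peptide gene CLV3 and the stem cell factor WUS were at or near the floor of the data. CLV3 had fitted levels of 0.795 with PS-SO3H and 0.708 in control leaf, and of 0.259 with PS-NH2 and 0.244 in control leaf in the other table. In root CLV3 stood at 0.244 with PS-SO3H and 0.252 in control, and WUS, at 0.252 with PS-SO3H and 0.261 in control leaf, was listed in neither root table. CLE3, a related peptide, was listed in root only, at 7.03 with PS-NH2 and 5.89 in control. CLE4 stood at 12.5 with PS-NH2 and 23.4 in control root (log2 fold change -0.90, SE 0.37, adjusted p = 0.21). For CLV3, WUS and CLE3 a difference was not detectable at such levels. CLE4 had an unadjusted p of 0.015 in the authors' DESeq2 test and was not called.

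Most members were listed in both tissues, with 197 of 202 in all 4 tables, and some of those, such as CLV3, were near 0. Per kilobase of gene length, the member with the highest mean level was the transketolase AT3G60750, a plastid enzyme of carbon fixation, at 6449 in untreated root and 23120.2 in untreated leaf. AT1G11860, an aminomethyltransferase of the photorespiratory glycine cleavage system, followed with 1992 in root and 17149 in leaf. POM1, a chitinase-like protein needed for cellulose deposition, had 9157 in root and 8358 in leaf. LCR69 and LCR68 (defensin-like proteins), DWF1 (a sterol reductase of brassinosteroid synthesis), AGP9 (an arabinogalactan protein), WAT1 (a tonoplast auxin transporter), XTH9 (a xyloglucan-modifying enzyme) and SHD (the chaperone GRP94) completed the 10 highest. The median member had 385 per kilobase over the tables. Levels were set across tissues that were normalized separately, so a root to leaf ratio is a description.

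On that basis 142 of 197 members (72.1%) had a higher untreated level in root than in leaf, beside 69.4% of the 22373 genes in all 4 tables. The median log2 ratio of root over leaf was 0.62 for the members and 0.55 for all genes. ATML1, a homeodomain factor of the epidermal layer, had 50.8 per kilobase in root and 611 in leaf. HB20 had 514 in root and 16.6 in leaf, and JKD, a zinc finger protein that acts with SCR and SHR, had 514.8 in root and 122 in leaf. HO3, a haem oxygenase of phytochrome chromophore synthesis, had 0.444 in root and 62.6 in leaf, so its root values carry no information on treatment.

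**Figure D1:**
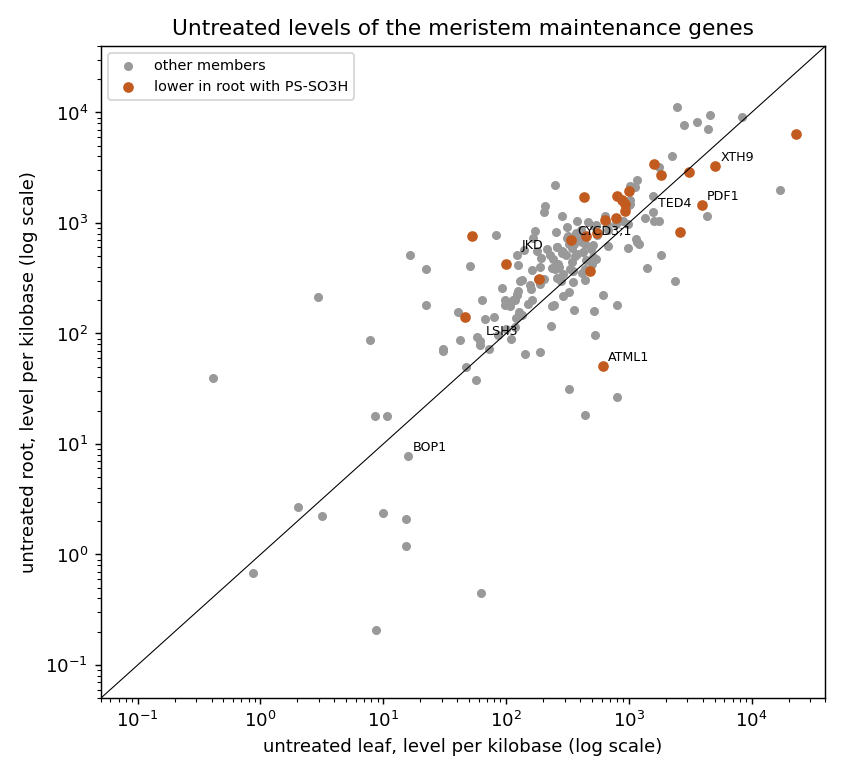
Untreated level per kilobase of gene length in root (vertical, log scale) against leaf (horizontal, log scale) for each member with values in both tissues; the line marks equal levels. Orange points are the 24 members lower in root with PS-SO3H, 17 of which lie above the line, and ATML1 and PDF1 lie below it.

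In root with PS-SO3H, 24 of the 199 members listed were lower than in control and 0 were higher. The authors' adjusted p was below 0.05 and the direction lower in 1.95% of all genes in that table, against 12.1% of the members, and higher in 2.88% of all genes. At an unadjusted p below 0.05, 2 members were higher and 40 lower, beside 1583 higher and 1189 lower of the 23818 genes. The median member had a log2 fold change of -0.11 and the median gene of the table -0.00388, and 148 of 199 members (74.4%) lay below 0, beside 50.8% of all genes. The members are longer and more abundant than the median gene (median length 2228 against 1538 bases, median level 949.6 against 288). Among genes at a level of 200 or more and at least 2000 bases long, 2.47% were lower and 56.1% lay below 0.

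**Figure D2:**
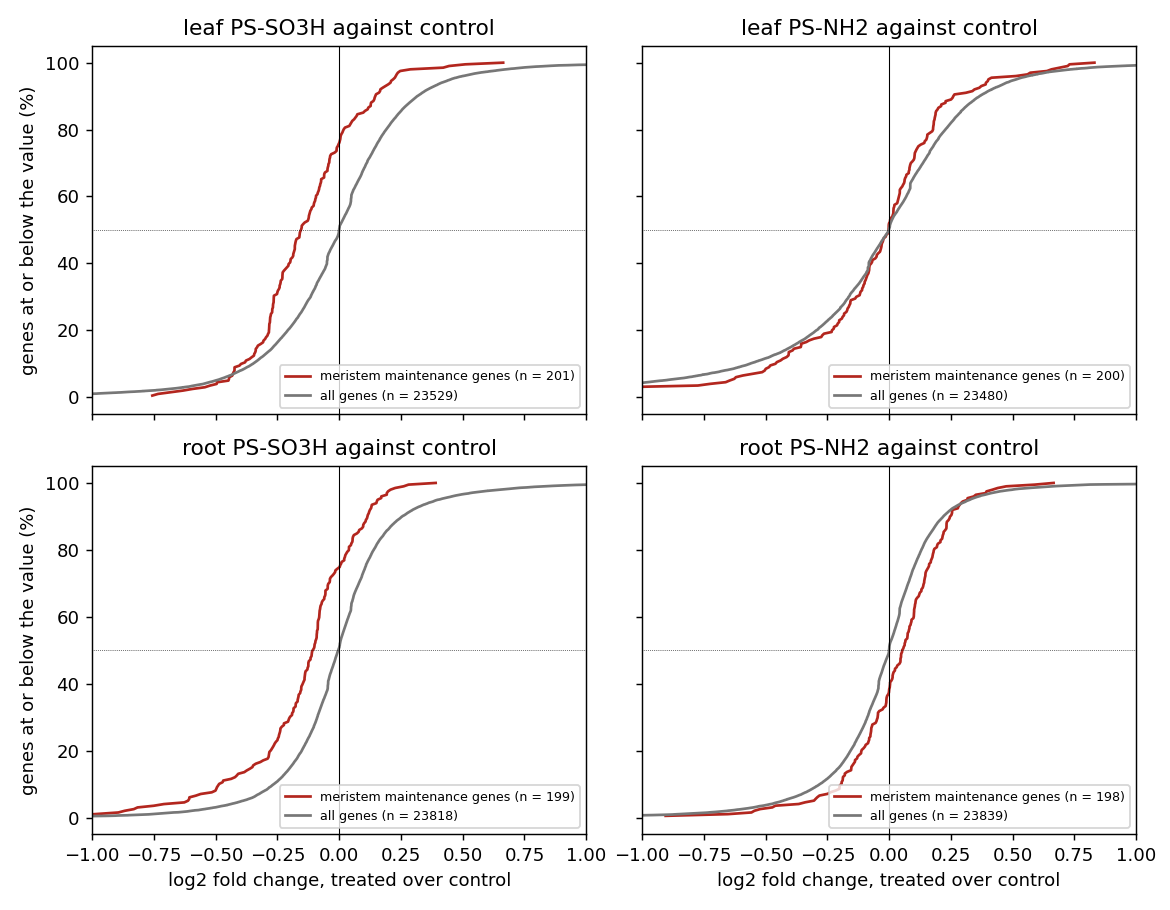
Cumulative share of genes (vertical, percent) at or below each log2 fold change, treated over control (horizontal), for the meristem maintenance genes in red and all genes of the table in grey. The red curve lies left of the grey one with PS-SO3H in both tissues, right of it for most of its course in root with PS-NH2, and close to it in leaf with PS-NH2.

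Cell wall and secreted proteins made up 15 of the 24 lower members, out of 32 in that role group. This stood beside 1.95% of all genes lower and 2.71% of those at a level of 200 or more. The group was assigned with values in view. AT1G04680, a putative pectate lyase, had a level of 2165 with PS-SO3H and 3953 in control root (log2 fold change -0.87, SE 0.10, adjusted p = 1.04e-15). ATLP-1, a thaumatin-like protein, had 651 with PS-SO3H and 1210.03 in control (log2 fold change -0.89, SE 0.12, adjusted p = 1.98e-11). AT2G19970, described as a putative pathogenesis-related protein, had 347 with PS-SO3H and 689 in control (log2 fold change -0.99, SE 0.15, adjusted p = 1.85e-08). These 3 had the most negative fold changes of the wall group.

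XTH9, which cuts and rejoins xyloglucan, had 2438 with PS-SO3H and 3726 in control root (log2 fold change -0.61, SE 0.11, adjusted p = 1.37e-06). PG2, annotated as polygalacturonase 2, had 4675 with PS-SO3H and 6485 in control (-0.47, SE 0.08, adjusted p = 2.12e-06). The other wall members called were the glycine-rich protein AT4G29020, PDF1, the early nodulin-like proteins ENODL14 and ENODL15, the beta-galactosidase BGAL3, the peroxidase AT2G22420, the pectin methylesterase-like AT5G09760, the thaumatin-like AT4G38660, the putative xylosidase AT1G78060 and the subtilase-like AT2G05920. Their log2 fold changes ran between -0.71 and -0.27. The authors' own table annotates 32 members to cell wall organization, a set that overlaps this role group in 11. Of those 32 annotated members, 6 were lower, beside 1.95% of all genes.

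ATML1, PDF1 and AT4G29020 were also lower in root with PS-SO3H. ATML1, the homeodomain factor that specifies epidermis, had 97.4 with PS-SO3H and 164 in control root (log2 fold change -0.75, SE 0.24, adjusted p = 0.035). PDF1, a proline-rich protein of the outermost shoot layer and a known ATML1 target, had 1295 with PS-SO3H and 2000.4 in control (-0.63, SE 0.12, adjusted p = 1.12e-05). The glycine-rich AT4G29020 had 459.6 with PS-SO3H and 752 in control (-0.71, SE 0.16, adjusted p = 5.27e-04). All 3 have higher untreated levels per length in leaf than in root.

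In the cell division group, CYCD3;1, a D-type cyclin that drives entry into the cell cycle downstream of cytokinin, had 737 with PS-SO3H and 1298 in control root (log2 fold change -0.82, SE 0.12, adjusted p = 2.68e-09). The tubulin gene TUB7 was lower too (-0.29, SE 0.09, adjusted p = 0.024), and the other 8 members of that group were not called. Over all genes 1.95% were lower. AT1G03620, an ELMO domain protein, was the only member lower by 1 or more on the log2 scale, at 91.1 with PS-SO3H and 197 in control (-1.11, SE 0.26, adjusted p = 6.44e-04).

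Among receptors, BAM1, a CLV1-related kinase that binds CLE peptides, had 4473 with PS-SO3H and 6193 in control root (log2 fold change -0.47, SE 0.09, adjusted p = 1.50e-05). BAM2 had 1468 and 1763 (-0.26, adjusted p = 0.16) and BAM3 had 2891 and 3133 (-0.12, adjusted p = 0.89), in the same order of treated and control root. PLL1, a phosphatase of the CLV pathway, had 396 with PS-SO3H and 559 in control (-0.50, adjusted p = 0.058). The auxin influx carrier LAX2 (-0.41, SE 0.11, adjusted p = 0.0046) and the NPH3-family protein AT5G48800 (-0.61, SE 0.12, adjusted p = 3.49e-05) were lower, as were the potassium transporter KT2 (-0.49) and the transketolase AT3G60750 (-0.28). The HD-ZIP III factors REV, PHB, PHV and ATHB-15 lay between -0.18 and -0.08 and were not called. Of 21 members that act on chromatin, RNA or the nuclear pore, the authors' DESeq2 test called 0, with 0 at an unadjusted p below 0.05 and a median of -0.07. Over all genes 1.95% were called lower and 2.88% higher, so 0 of 21 called is near that share.

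**Figure D3:**
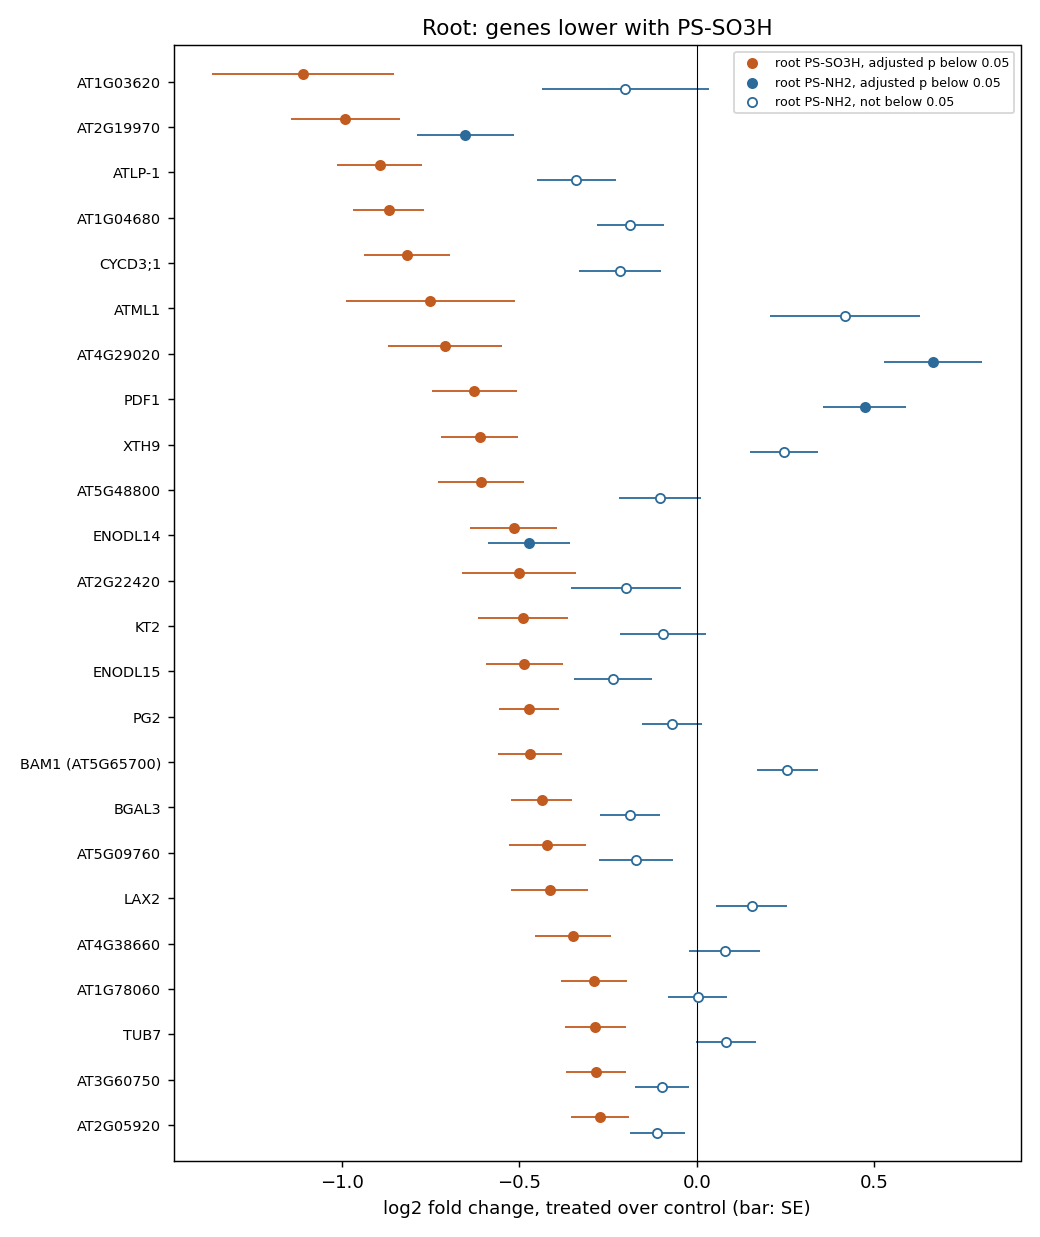
Log2 fold change in root, treated over control, of the 24 members lower with PS-SO3H (orange, upper point of each row) and of the same genes with PS-NH2 (blue, lower point). Filled points passed an adjusted p of 0.05 and bars are 1 SE. All orange points lie left of 0, and 9 of the blue points lie right of 0.

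Marker genes of other tissue moved in the same comparison. All 8 green leaf markers had log2 fold changes below 0 in root with PS-SO3H, with a summed level of 5265 with PS-SO3H and 6567 in control root, and LHCA1 (-0.61) and LHCB1.1 (-1.43) were called lower. Of 6 markers of differentiated root, the root hair genes COBL9 (0.72) and EXPA7 (0.59) were called higher. The 6 summed to 9481 with PS-SO3H and 6680.2 in control. PRP3, which was not called, stood at 3930 and 2281 in that order (adjusted p = 0.17). Of 6 root niche and meristem markers, the authors' DESeq2 test called 0, with 0 at an unadjusted p below 0.05. With 1.95% of all genes lower and 2.88% higher, 0 of 6 called is near the share of all genes. The 6 niche markers summed to 2114 with PS-SO3H and 2226 in control. Of 8 shoot apical meristem markers, WUS was not listed, CLV3 and STM were near 0, KNAT1 was called lower and 5 of 7 lay below 0. The 7 summed to 2344 with PS-SO3H and 2816 in control. CLV1, which was not called, made up 2005 and 2312 of these sums (adjusted p = 0.41). The part of these shifts in the lower values of the members was not tested.

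With PS-NH2, fewer members were called in root: 4 members were higher (1.62% of all genes) and 4 lower (2.70% of all genes), 2.02% of the members each way. The median member stood at 0.06, and 75 of 198 (37.9%) lay below 0, beside 50.2% of all genes. The share was 41.4% among genes at a level of 200 or more and at least 2000 bases long, a limit not set on the members. At a level of 200 or more, of any length, 33.5% of the members and 47.9% of all genes lay below 0. AT4G29020 had 1246 with PS-NH2 and 785 in control (log2 fold change 0.67, SE 0.14, adjusted p = 1.13e-04), and PDF1 had 2874 and 2068 (0.47, SE 0.12, adjusted p = 0.0023) in that order. The Dof factor TMO6, a target of MONOPTEROS, had 1212 with PS-NH2 and 922 in control (0.39, adjusted p = 0.022). SAC51, a bHLH factor of stem elongation, had 2694 with PS-NH2 and 2163 in control (0.32, adjusted p = 0.017).

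The lower members with PS-NH2 in root were AT2G19970 (-0.65, adjusted p = 1.33e-04), JP630, a putative polygalacturonase subunit (-0.52, adjusted p = 0.013), ENODL14 (-0.47, adjusted p = 0.0024) and LCR68 (-0.37, adjusted p = 0.011). AT2G19970, at 451 with PS-NH2 and 709 in control, and ENODL14, at 782 with PS-NH2 and 1085 in control, were lower with both particles. The PS-SO3H and PS-NH2 root comparisons share their control libraries. Beside these values, 1 green leaf marker was higher and 1 lower in root with PS-NH2. The 8 green leaf markers summed to 8121 with PS-NH2 and 6799.8 in control. RBCS1A, the marker called higher, made up 4528 and 3462 of these sums. Of 6 root niche and meristem markers, 0 were called and 0 lay below 0 (median 0.40). At an unadjusted p below 0.05, 3 of them were higher, beside 1041 of 23839 genes. They summed to 2587 with PS-NH2 and 2301 in control. Of 6 markers of differentiated root, NRT2.1 (1.76) was called higher and 4 lay below 0. Of 7 shoot apical meristem markers listed, 0 were called and 3 lay below 0. The part of these markers in the members' values was not tested.

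The difference between particles in root was tested directly, as PS-NH2 minus PS-SO3H. It was positive at an adjusted p below 0.05 for 10 of 198 members (0.974% of all genes) and negative for 1 (2.26% of all genes). AT4G29020 differed by 1.38 (95% interval 0.96 to 1.79), ATML1 by 1.17 (0.55 to 1.79), PDF1 by 1.101 (0.77 to 1.43), XTH9 by 0.86 (0.58 to 1.14) and BAM1 by 0.72 (0.48 to 0.97). CYCD3;1, LAX2, ATLP-1, AT1G04680 and PG2 differed by 0.40 to 0.68. JP630 differed the other way by -0.75 (-1.14 to -0.35). ATML1, AT4G29020, PDF1, XTH9, BAM1 and LAX2 had values on opposite sides of 0 with the 2 particles, and CYCD3;1, ATLP-1, AT1G04680 and PG2 were below 0 with both. The interval for AT2G19970, whose difference was not called, ran from -0.07 to 0.74. Since both contrasts share control libraries, adding their squared SEs makes these intervals too wide for the spread that the SEs measure. That spread may be technical only. With the covariance from the shared controls taken out, 40 members had a positive and 3 a negative difference. The smaller SE can add calls among all genes too, and their share at that setting was not taken. The shares of all genes given above do not apply to it.

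In leaf, PS-NH2 changed 26 of 200 members, 11 higher (5.5% of the members, 3.79% of all genes) and 15 lower (7.5% of the members, 7.40% of all genes). The lower share was close to that of all genes. The median member stood at -0.00196 and 52.0% lay below 0, close to the 50.4% of all genes. The share was 59.3% among genes at a level of 200 or more and at least 2000 bases long, a limit not set on the members. At a level of 200 or more, of any length, it was 46.9% of the members and 47.7% of all genes. The largest changes were falls.

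AT1G33055, an uncharacterized protein, had 28.6 with PS-NH2 and 139 in control leaf (log2 fold change -2.28, SE 0.38, adjusted p = 8.31e-08). AT3G10040, a trihelix-type transcription factor, had 156 with PS-NH2 and 475 in control (-1.60, SE 0.23, adjusted p = 7.84e-11). AT3G27220, a Kelch repeat protein, had 123 with PS-NH2 and 266 in control (-1.12, SE 0.25, adjusted p = 1.81e-04). These 3 genes are known as members of the core set induced by low oxygen in Arabidopsis. In root with PS-NH2 their log2 fold changes were 0.59, 0.44 and 0.23 in the same order of genes, and 0 of them were called.

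HO3 had 20.5 with PS-NH2 and 67.5 in control leaf (-1.72, SE 0.44, adjusted p = 0.0017), and HY5, a bZIP factor that promotes light responses, had 160.3 with PS-NH2 and 265 in control (-0.72, SE 0.24, adjusted p = 0.025). The cryptochromes CRY1 (0.06) and CRY2 (0.15) were not called. ATSPS4F, a sucrose-phosphate synthase, had 1143 with PS-NH2 and 2579.6 in control (-1.17, SE 0.13, adjusted p = 2.42e-18). The chaperone SHD had 3931 with PS-NH2 and 6149 in control (-0.65, SE 0.13, adjusted p = 3.33e-05), and the phosphatase PLL1 had 106 with PS-NH2 and 182 in control (-0.77, SE 0.27, adjusted p = 0.040). MFP1, AT2G45290, AT5G09760, LCR68, BGAL3, AT3G57880 and NPY5 were lower by less, between -0.51 and -0.39.

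The 11 higher members included receptors and cytoskeleton genes. NIK1, a receptor-like kinase linked to antiviral signalling, had 736 with PS-NH2 and 414 in control leaf (0.83, SE 0.16, adjusted p = 1.13e-05). BAM2 had 3019 with PS-NH2 and 1829 in control (0.72, SE 0.13, adjusted p = 1.19e-06), while BAM1 (0.00) and BAM3 (0.26) were not called. XTH9 had 9709.5 with PS-NH2 and 5852 in control (0.73, SE 0.14, adjusted p = 5.09e-06). TUB7 had 5334 with PS-NH2 and 3307 in control (0.69, SE 0.13, adjusted p = 4.11e-06), and the microtubule-associated MAP70-1 had 1504 with PS-NH2 and 1019.9 in control (0.56, SE 0.13, adjusted p = 3.32e-04). The kinases AT5G56040 (0.64), MPK20 (0.51) and RKL1 (0.41), the DnaJ protein AT1G56300 (0.66), the acyltransferase AT1G69420 (0.39) and DWF1 (0.37) completed the list. In the group of other kinases 4 of 22 were higher, beside 3.79% of all genes and 6.66% of those at a level of 200 or more, in a group assigned with values in view. Of the green leaf markers, 4 of 8 were lower in this comparison, with LHCB1.1 at -1.72, and GAPB was higher. The 8 summed to 983746 with PS-NH2 and 968440 in control. Most of these sums came from 2 genes that were not called in the authors' DESeq2 test. RBCS1A stood at 458640 and 388819 (adjusted p = 0.24) and RBCS3B at 331159 and 302065 (adjusted p = 0.76), in that order. The sums therefore hide the falls of the 4 lower markers. The 6 differentiated root markers summed to 57.0 with PS-NH2 and 75.6 in control leaf. Their part in the members' values was not tested.

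**Figure D4:**
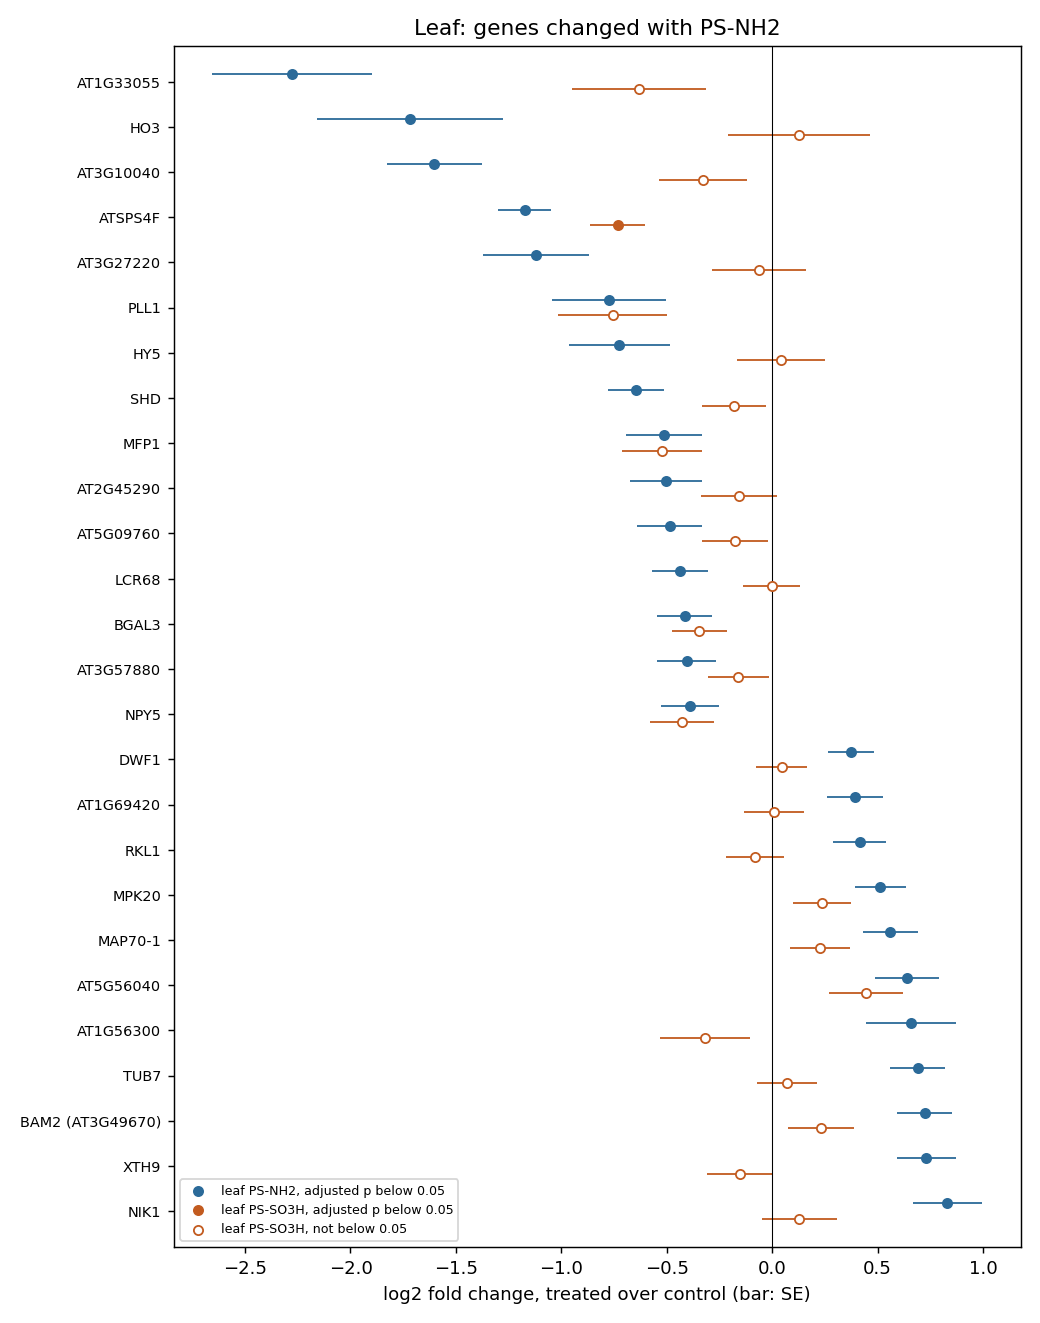
Log2 fold change in leaf, treated over control, of the 26 members changed with PS-NH2 (blue, upper point of each row) and of the same genes with PS-SO3H (orange, lower point). Filled points passed an adjusted p of 0.05 and bars are 1 SE; ATSPS4F is the gene filled in both.

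In leaf with PS-SO3H, 3 members were lower (1.49% of the members, 2.63% of all genes) and 0 higher (1.83% of all genes). At an unadjusted p below 0.05 the counts were 18 lower and 1 higher, beside 1558 lower and 1348 higher of the 23529 genes. ATSPS4F had 1564 with PS-SO3H and 2600.1 in control (-0.73, SE 0.13, adjusted p = 1.70e-06), PG2 had 4358 and 6993 (-0.68, adjusted p = 7.49e-04) and PGR3, a pentatricopeptide protein of the chloroplast, had 809 and 1141 (-0.50, adjusted p = 0.025), in that order. The median member stood at -0.15 and 75.6% of the members lay below 0, beside 50.1% of all genes. The share was 63.7% among genes at a level of 200 or more and at least 2000 bases long, a limit not set on the members. At a level of 200 or more, of any length, it was 77.6% of the members and 48.3% of all genes. PG2 was called lower with PS-SO3H in both tissues.

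Between particles in leaf, PS-NH2 minus PS-SO3H was positive for 3 of 200 members (0.583% of all genes) and negative for 3 (2.59% of all genes). AT1G56300 differed by 0.98 (95% interval 0.39 to 1.57), XTH9 by 0.88 (0.47 to 1.29) and TUB7 by 0.62 (0.24 to 1.00). HO3 differed by -1.85 (-2.94 to -0.76), AT1G33055 by -1.64 (-2.61 to -0.67) and AT3G10040 by -1.27 (-1.88 to -0.67). The contrasts share control libraries here too, and with that covariance taken out 11 members had a positive and 8 a negative difference. The share of all genes at that setting was not taken. XTH9 had a more positive value with PS-NH2 than with PS-SO3H in both tissues.

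**Figure D5:**
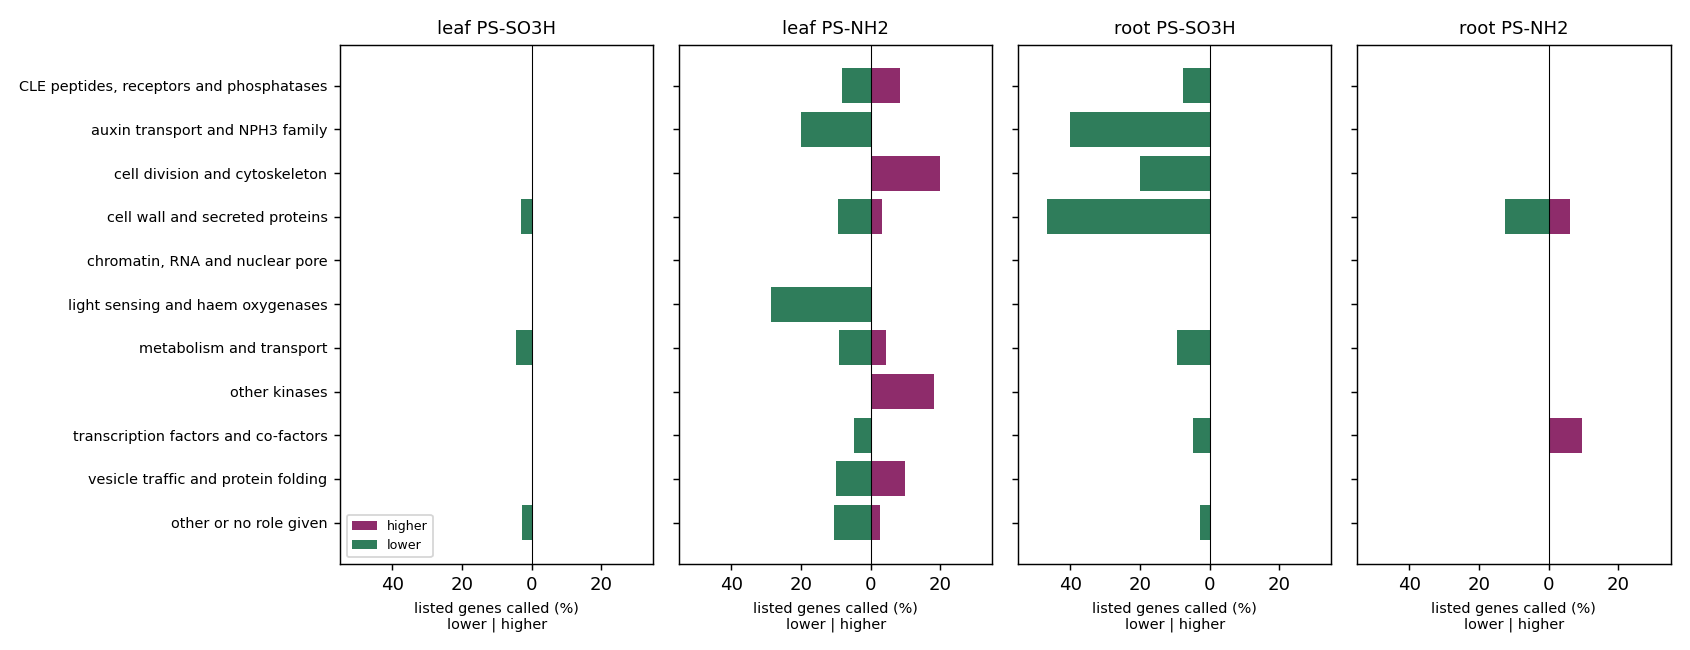
Share of the listed members of each role group called at an adjusted p below 0.05 (horizontal, percent; higher to the right, lower to the left) in each comparison with control. Groups hold 5 to 38 members and were assigned with values in view. The cell wall bar in root with PS-SO3H stands for 15 of 32 genes.

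The tissues were compared per particle, as root minus leaf. For PS-NH2, 6 of 197 members had a positive difference (4.59% of all genes) and 7 a negative one (1.99% of all genes). The 6 include HO3, which is near the floor in root, so that no root response could be measured for it. AT1G33055 differed by 2.87 (95% interval 1.99 to 3.75), AT3G10040 by 2.04 (1.47 to 2.62), ATSPS4F by 1.46 (0.89 to 2.03) and AT3G27220 by 1.35 (0.76 to 1.93). AT1G56300 differed by -1.12 (-1.64 to -0.60), NIK1 by -0.82 (-1.22 to -0.43) and BAM2 by -0.62 (-0.94 to -0.29). For PS-SO3H, 0 of 198 members differed in either direction by the normal test adjusted over all genes (1.63% of all genes positive, 0.902% negative). At an unadjusted p below 0.05, 5 members were positive and 12 negative, beside 2028 of 22720 genes in either direction. The smallest adjusted p was 0.057, for the protease XCP2.

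The regulators without the term gave a mixed picture. Of 52 of them, 50 were listed in root with PS-SO3H and 4 were lower there (1.95% of all genes): KNAT1 (-0.57), the cambium factor WOX4 (-0.90), the type-A response regulator ARR7 (-0.84) and the auxin repressor SHY2 (-0.61). In root with PS-NH2, 51 were listed, AGO10 (0.54) and PLT3 (0.76) were higher (1.62% of all genes) and ARR5 (-0.58) was lower (2.70% of all genes). All 52 were listed in leaf, where 1 was higher and 3 lower with PS-SO3H (1.83% and 2.63% of all genes) and 3 were higher and 3 lower with PS-NH2 (3.79% and 7.40% of all genes). In leaf, ARR5 and ARR7 were lower with both particles (-1.69 and -0.92 with PS-SO3H, -1.63 and -0.96 with PS-NH2) and the GRAS gene HAM1 was higher (0.66 with PS-SO3H, 0.79 with PS-NH2). RPK2 (-0.55) was lower in leaf with PS-SO3H, and in leaf with PS-NH2 ULT1 (0.99) and HAM2 (0.41) were higher and the remodeller SYD (-0.62) lower.

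WUS, STM, CLV1, WOX5, PLT1, PLT2, SCR and SHR, which lack the term, were called in none of the comparisons that list them. Over all genes the share called in 1 direction ran from 1.62% to 7.40% between comparisons. STM had 136 with PS-NH2 and 217 in control leaf (-0.68, adjusted p = 0.065). PLT2 had 213 with PS-NH2 and 136 in control root (0.65, adjusted p = 0.053), and PLT1 had 255 and 182 in that order (0.48, adjusted p = 0.27). WOX5 had 17.3 with PS-SO3H and 25.2 in control root (-0.54, adjusted p = 0.76). CLV1, SCR and SHR lay between -0.21 and 0.24 in the comparisons with control.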

How the data were processed

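Total RNA was taken with Trizol and copied with random primers, per the labels' protocols. The genome build was TAIR10, per the submitters' processing notes. The text of the series describes a small RNA library, so which of its steps apply is unclear, and the counting program is not given in the sources used here. The group level in the deposited tables is a fitted signal that the authors obtained with DESeq2, as the table names say, on the scale of size-factor-scaled reads. The authors also deposited log2 fold changes, p-values and adjusted p-values. No value per library is in them (0 such columns), so the planned test on counts was replaced by its stated substitute.

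Members were found by the term in the union of the 4 tables, and all 202 loci were matched to the TAIR10.1 table for symbols. No coordinates or sequences are given. The members and lists were chosen with earlier results of these data known, and the role groups were assigned with values in view. SE is the fold change over the normal quantile of the authors' p. Differences add squared SEs, with 2-sided p-values from the normal distribution, adjusted by Benjamini-Hochberg over all genes in both tables. The code was tested on simulated data. Named genes are the 8 highest and 8 lowest called members per comparison and the 5 highest and lowest per difference, at a level of at least 20, called members among the regulators, 9 fixed stem cell genes, and the 10 highest members per length. Others named were chosen after their values were seen. Python 3.11.15, pandas 2.3.3, SciPy 1.17.1 and matplotlib 3.10.9 were used.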

Additional observations from a re-analysis of the deposited data

Results flagged for a closer look

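For 13 members the response to PS-NH2 differed between root and leaf by the test of the difference itself (root minus leaf, normal test with Benjamini-Hochberg adjustment over all genes). The difference was positive for AT1G33055 (2.87), AT3G10040 (2.04), HO3 (1.64), ATSPS4F (1.46), AT3G27220 (1.35) and SHD (0.49). It was negative for AT1G56300 (-1.12), NIK1 (-0.82), MPK20 (-0.66), BAM2 (-0.62), TUB7 (-0.61), AT3G02250 (-0.59) and MAP70-1 (-0.51). HO3 is near the floor in root, at 0.476 with PS-NH2 and 0.503 in control, so no root response could be measured. Its difference rests on the leaf value alone and does not show that the tissues respond differently. The 2 tissues were normalized separately.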

How the results depend on the processing

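No paired analysis was possible because the deposited tables hold no value per library, and leaving out a replicate was not run for the same reason. Requiring also a log2 fold change of at least 1 in size left 0 members in leaf PS-SO3H, 5 in leaf PS-NH2, 1 in root PS-SO3H and 0 in root PS-NH2, and an adjusted p of at most 0.001 with that size left 0, 4, 1 and 0. The particle and tissue differences of at least 1 numbered 3 in leaf, 3 in root and 6 for PS-NH2 between tissues, HO3 included. Taking out the covariance from shared controls gave 19 particle differences in leaf (11 positive, 8 negative) and 43 in root (40 positive, 3 negative), by construction, since the SE is then smaller. Shares over all genes were not taken at that setting. For the 4 comparisons with control, the level filter of 10, re-centring, the annotation of each own table, the wider set of 232 genes and a level filter of 200, which was chosen after seeing the data, kept the total called within 1.5 times. The wider set had 1 higher gene in leaf PS-SO3H and 1 in root PS-SO3H, where the members had 0. For the 4 differences the level filter of 10 kept the total within 1.5 times, as did re-centring, which was run for the tissue differences only. The medians moved by less than 1 median SE. Of 35 named values against control, 29 lost the call with the size limit of 1, 30 with the stricter limit and 0 with the level filter of 10 or re-centring. Depth per library is unknown.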
